A study of Mus musculus and Homo sapiens with 352 samples.

Results

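This account concerns 542 CTCF loop anchors that kept their partners on one side. They were found among 16928 distinct anchors in the CTCF ChIA-PET lists of a wild-type and a CTCF-mutant mouse B cell line. An anchor was taken when it had 3 to 5 partner anchors in the wild-type list and again 3 to 5 in the mutant list, with every partner on one side of it in both lists. Of the 9095 anchors in both lists, 1021 had 3 to 5 partners in each, and 542 of those (53.1%, fixed by the rule itself) had all partners on one side. A further 230 had partners on both sides in both lists, and 249 were one-sided in 1 list and two-sided in the other. No anchor was turned to opposite sides in the 2 lists. Partner number and side chose these anchors, so both are given as description.

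The series holds 352 samples on cohesin and loop extrusion in mouse and human cells, most of them not analysed here. ChIA-PET joins DNA ends held by the same protein complex, so each listed interaction is a pair of CTCF-bound anchors with a count of supporting tags. Of the 2 libraries used, both from CH12, a B cell lymphoma line of the mouse, one has the genotype WT and the other CTCFmZF9to11, a mutated CTCF named for its zinc fingers 9 to 11. The labels used here do not say whether the mutant is 1 clone, and with a single library of each genotype all comparisons below are between libraries, not genotypes.

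CTCF binds DNA through its zinc fingers and stops cohesin, the ring complex that reels chromatin into loops. CTCF motifs have a direction, and a bound site stops cohesin arriving from one side more than from the other. When one strong site holds cohesin while the opposite end of the loop keeps growing, contact maps show a stripe that starts at that site, and a point-to-point list can then show 1 anchor with several partners in a row on the same side. The lists used here hold pairs of anchors and no contact map, so stripes themselves were not measured, and neither motif direction nor genes at the anchors were analysed here. All positions are mm9, 1-based.

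Listed were 11534 wild-type interactions, supported by 74198 tags, and 11820 mutant interactions, supported by 82222, and each interaction had at least 3 tags. The 542 anchors took part in 1806 wild-type interactions with 12514 tags (16.9% of listed tags) and in 1843 mutant interactions with 14642 tags (17.8%). In the wild-type list 353 of them had 3 partners, 144 had 4 and 45 had 5. In the mutant list the numbers were 322, 161 and 59, and 232 anchors had exactly 3 in both. They lay on all autosomes, with the highest counts on chromosomes 11 (64 anchors), 2 (45) and 14 (36). Of anchors with 3 to 5 partners in both lists there, they made up 56.1%, 60.8% and 46.2%, beside 53.1% over all chromosomes. None lay on the X chromosome, where 77 anchors were in both lists and none had 3 to 5 partners in each. Left and right were close to balanced, with 279 anchors reaching left and 263 reaching right (51.5% left, exact 95% interval 47.2 to 55.8). Such intervals, here and below, cover counting error only and treat anchors, partners or peaks as independent, although some anchors share partners.

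The 4 anchors mapped here, each first in its rank, show the range of forms. The left-reaching anchor with most tags lies at chr2:147003222-147005269 and had the same 4 partners in both libraries. Its nearest partner, at 219 kb, had 53 wild-type and 20 mutant tags (adjusted p = 0.00257, two-sided exact binomial test with Benjamini-Hochberg adjustment over all 5400 interactions in both lists). The partners at 545, 557 and 566 kb had 15, 11 and 6 tags in the wild type and 19, 10 and 5 in the mutant. So the 3 distant partners, which crowd within a short interval, had like tags in the 2 libraries, while the nearest had fewer in the mutant library. The right-reaching anchor with most tags, at chr3:87739252-87740638, had 8, 8, 39 and 6 wild-type tags on partners at 24.99, 34.2, 51.4 and 136 kb. In the mutant library the first 3 had 6, 4 and 77 tags, the partner at 136 kb was not listed, and a partner at 307 kb had 4. The anchor with the largest gain of reach, at chr8:71546910-71547989, kept a partner at 186 kb with 15 tags in each library. Its wild-type partners at 147 and 210 kb (4 and 5 tags) were not listed in the mutant, which instead had partners at 662 and 1592 kb with 3 tags each. The anchor with the largest loss, at chr9:32079296-32080329, kept partners at 78.3 and 116 kb with 10 and 3 tags in each library. It had wild-type partners at 318 and 824 kb (5 and 3 tags), not listed in the mutant, which had a new one at 133 kb with 4 tags. The far ends of the largest gain and of this loss, at 1592 and 824 kb, rested on partners with 3 tags, the least that the lists hold.

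**Figure D1:**
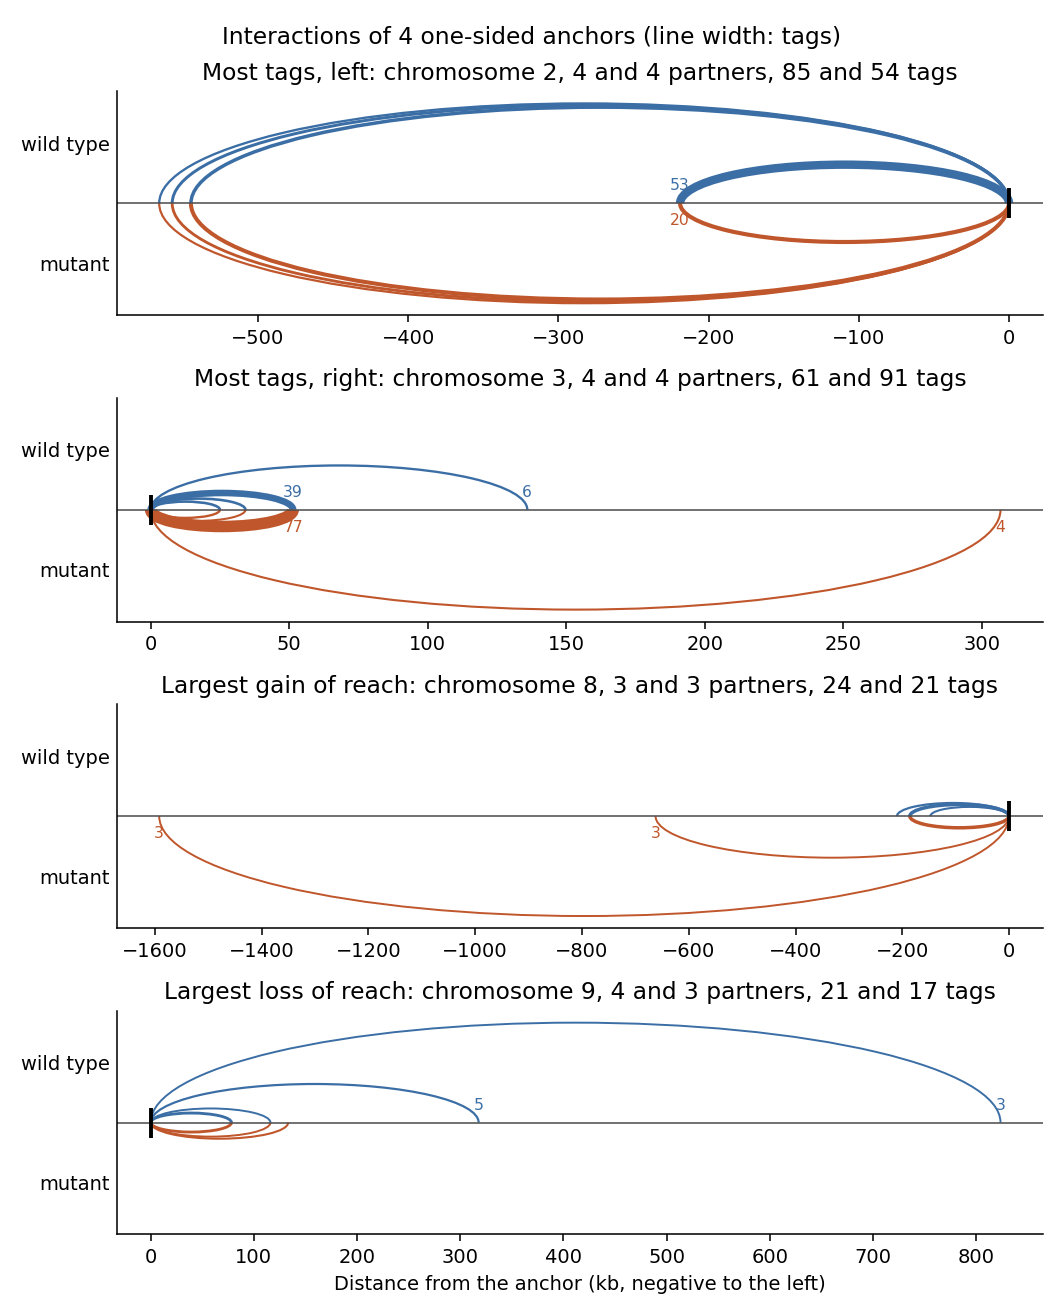
Partners of 4 anchors chosen by rank, with distance from the anchor in kb on the horizontal axis, wild-type interactions above the line and mutant ones below it. Line width follows the tags, which are printed where neighbouring partners leave room. The chromosome 2 anchor has the same 4 partners in both libraries, and the chromosome 8 anchor reaches 210 kb in the wild type and 1592 kb in the mutant.

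Reach, the distance between the midpoints of an anchor and its farthest partner, was longer in the mutant library. The wild-type median was 249 kb (95% interval 234 to 264, quartiles 155 and 412, range 27.3 to 1612 kb). The mutant median was 307 kb (278 to 325, quartiles 188 and 480, range 27.3 to 1736 kb). Reaches of 500 kb or more were found at 86 anchors (15.9%, 12.9 to 19.2) in the wild type and at 128 (23.6%, 20.1 to 27.4) in the mutant, and reaches of 1000 kb or more at 14 and 25. The nearest partner lay at a median of 77.1 kb (69.2 to 85.8) in the wild type and 84.2 kb (75.9 to 94.2) in the mutant, with intervals that overlap. The 2 intervals of median reach do not overlap, and the farthest partner was 2.84 times as far as the nearest at the median wild-type anchor and 3.23 times in the mutant.

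Most of the shift came from a part of the anchors, since 250 of 542 (46.1%) had the same farthest partner in both lists. Of the others, 216 (39.9% of all 542) reached farther in the mutant library and 76 (14.02%) less far. The same measure over all 9475 sides of the anchors in both lists gave 33.3% longer and 16.9% shorter. Among anchors whose reach differed, 74.0% (68.5 to 78.9) were longer in the mutant, beside 66.4% (65.0 to 67.7) of all anchor sides and 65.5% (58.5 to 72.1) of the sides of two-sided anchors. Changes of 1.5 times or more were another matter. Gains of that size were found at 116 anchors (21.4%), near the 21.7% of all sides, and losses at 21 (3.87%), fewer than the 8.05% of all sides. The rule asks for 3 to 5 partners in both lists, which leaves less room for loss than at an anchor side with a single partner, and its part in this difference was not tested.

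Listed tags were also more numerous in the mutant library, and the gain of reach was computed again with other tag minimums. When mutant interactions with 3 tags were left out and the wild-type list was kept whole, a setting chosen after seeing the data, 397 anchors met the rule. Their median reach was 239 kb in the wild type and 265 kb in the mutant, and 61.9% (54.6 to 68.7) of those that differed were longer in the mutant. Leaving interactions out of 1 list can only shorten or keep the reach of an anchor in that list. With at least 4 tags asked of both lists, the medians were 224 and 264 kb and the share was 70.2% (61.3 to 78.0). The direction was the same under both settings. The gain was smaller with the mutant list alone filtered, and with both filtered the share lay within the interval of the main value.

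**Figure D2:**
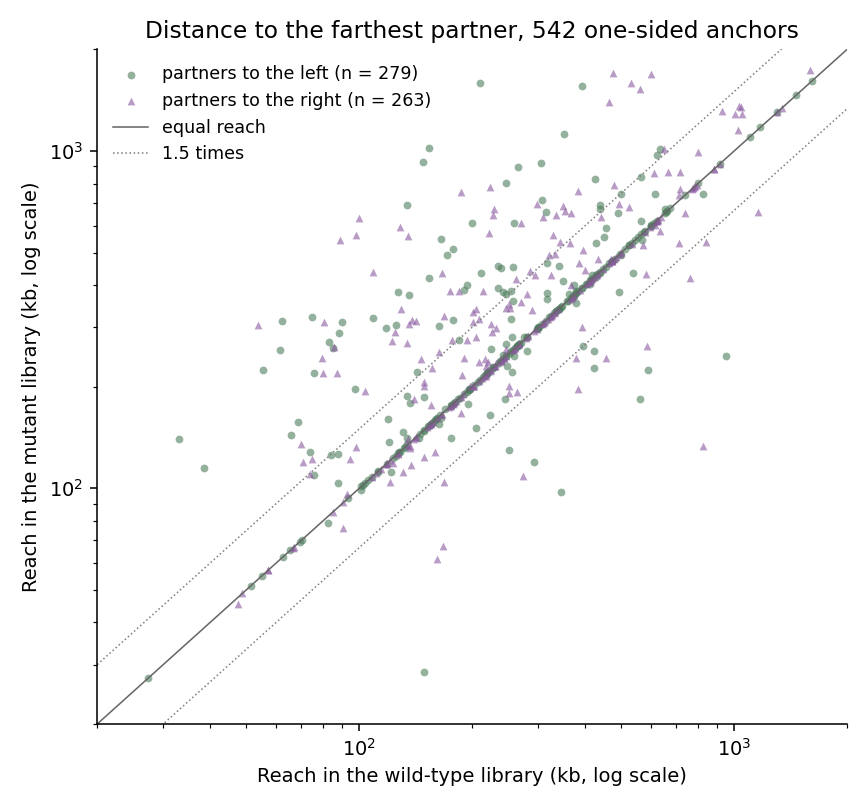
Reach of each of the 542 anchors in the wild-type (horizontal) and mutant library (vertical), in kb on log axes, with circles for anchors reaching left and triangles for those reaching right. The 250 anchors with the same farthest partner lie on the line of equal reach, and 216 lie above it against 76 below it.

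Anchors reaching left and right were alike in median reach. Left-reaching anchors had medians of 251 kb (229 to 266) in the wild type and 299 kb (263 to 330) in the mutant. Right-reaching anchors had 246 kb (224 to 280) and 311 kb (281 to 341). Reach was longer in the mutant at 97 left-reaching anchors and shorter at 39, and longer at 119 right-reaching anchors and shorter at 37. In the same direction, the farthest mutant partner was also a wild-type partner at 60.2% (54.2 to 66.0) of left-reaching and 47.5% (41.4 to 53.8) of right-reaching anchors. The farthest wild-type partner was in the mutant list at 73.1% and 70.3%. Left against right is an arbitrary direction of the assembly, and several measures were compared between the sides.

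Two-sided anchors, chosen by the same limits of 3 to 5 partners, had medians of 216 kb (189 to 237) in the wild type and 262 kb (232 to 293) in the mutant to their farthest partner on either side. Both are below the medians of the one-sided anchors, with intervals that overlap theirs. The part of the rule, which puts all partners of an anchor on 1 flank, was not tested. Just outside the limits, 1541 anchors that were one-sided in both lists with 2 partners in the poorer one had median reaches of 198 and 238 kb. The 55 with at least 3 in both and 6 or more in one had 351 and 435 kb. Just inside, the 232 anchors with exactly 3 partners in both lists had 238 and 267 kb, and the 100 with 5 in at least 1 list had 273 and 373 kb.

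The 3 longest wild-type reaches were of different makes. At chr2:10209822-10211257, reaching left, 3 near partners at 146, 187 and 190 kb had 12, 14 and 3 tags, and 2 more at 1535 and 1612 kb had 3 and 6. In the mutant library that anchor kept those at 146 and 190 kb (12 and 3 tags) and had 4 tags on a partner at 1615 kb, an anchor close to the one at 1612 kb but not the same. At chr14:71180197-71181297 no near partner was listed at all: its wild-type partners lay at 1513, 1519 and 1591 kb with 3, 4 and 5 tags, and its mutant partners at 1591, 1597 and 1736 kb with 6, 3 and 4. At chr13:93510490-93511691 a single partner at 161 kb had 27 tags in each library, and the farthest, at 1463 kb, had 3 and 4. At all 3 anchors both libraries listed a partner at a like far distance.

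Tags fell only weakly with partner rank, counted from the anchor outwards. Among anchors with 3 partners, mean tags from nearest to farthest were 7.78, 7.31 and 6.00 in the wild type (medians 6, 5 and 5) and 8.82, 8.34 and 7.01 in the mutant (medians 6, 6 and 5). With 4 partners the means were 7.35, 8.18, 7.09 and 5.97 in the wild type and 8.75, 9.08, 8.47 and 5.98 in the mutant. With 5 partners the farthest had a mean of 4.64 in the wild type and 5.54 in the mutant, each the lowest of its 5 ranks. The farthest partner had the lowest mean in each of these classes, but the quartiles of neighbouring ranks overlapped at every step, the last one included, and several medians did not fall at the last step.

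A steady decline along the row was uncommon. Tags fell at every step at 48 anchors (8.86%) in the wild type and 56 (10.3%) in the mutant. The nearest partner alone had most tags at 156 anchors (28.8%) in the wild type and at 31.5% (27.7 to 35.6) in the mutant. A partner in the middle had most at 39.7% and 42.1%, the farthest at 19.2% and 18.3%, and first place was tied at 12.4% and 8.12%. The nearest had more tags than the farthest at 267 anchors and fewer at 193 in the wild type, with 82 equal, and the mutant counts were 291, 192 and 59. Two-sided anchors gave 28.3% (22.5 to 34.6) and 28.7% (22.9 to 35.0) for the nearest partner, with intervals that hold the shares of the one-sided anchors.

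The tags of these interactions were also set beside those of other interactions of like span. At 100 to 200 kb the mean was 7.23 tags for 537 interactions of the one-sided anchors and 6.45 for 2701 others in the wild type, and 8.86 against 7.06 in the mutant. At 400 to 800 kb the means were 6.15 against 5.19 and 6.57 against 5.42. Under 50 kb they were 6.83 against 6.54 and 7.77 against 6.99. The medians, in the same order, were 5 against 5 and 6 against 5 at 100 to 200 kb. At 400 to 800 kb the medians were 4 against 4 in both libraries, and under 50 kb 5 against 4 and 6 against 4. Anchors that pass a limit on partner number must have several interactions above the tag minimum, and the part of that in these means was not tested.

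**Figure D3:**
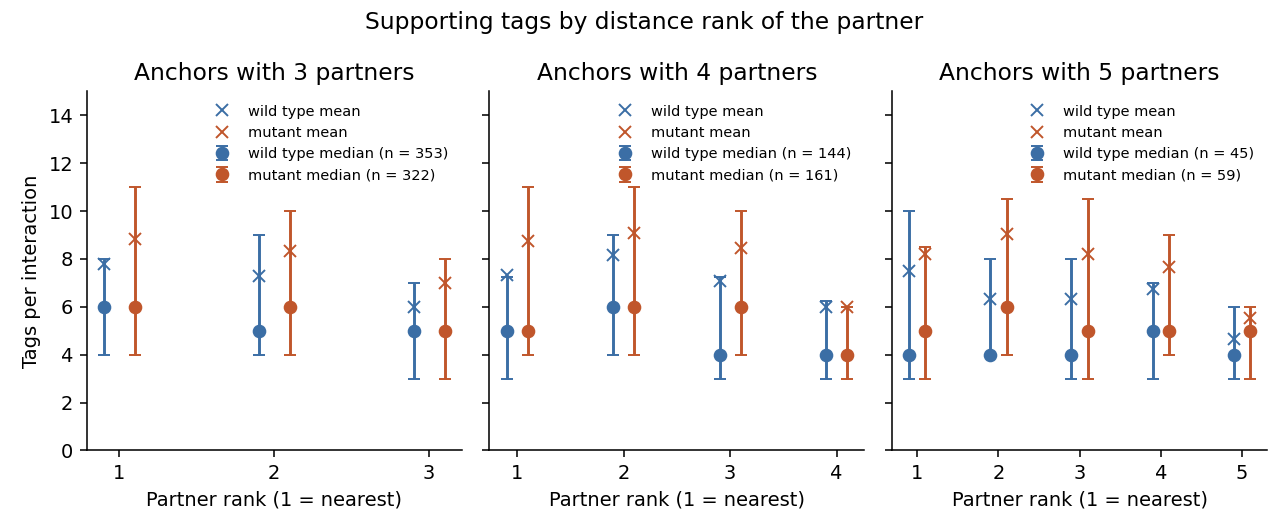
Tags per interaction by the rank of the partner from the anchor outwards, for anchors with 3, 4 and 5 partners. Circles are medians with quartile bars, crosses are means, and the farthest partner has the lowest mean in every panel and library.

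Of the 10 most tagged anchors, 5 reaching each way, the nearest partner had most tags at 5 in each library. At chr11:54067472-54068236, reaching left, partners at 109, 131 and 252 kb had 31, 16 and 7 wild-type and 42, 18 and 15 mutant tags, and the mutant list added partners at 98.3 and 161 kb with 3 and 4. At chr11:4321734-4322773 the partners were identical in both libraries, and the middle one of the 3, at 164 kb, had 36 and 51 tags beside 9 and 8 at 161 kb and 11 and 7 at 202 kb. The anchor's own CH12 peak stood at percentile 36.4 of its list, while its 3 partners stood at 92.7, 99.7 and 99.1, so the common end of the row was its weakest peak. At chr12:32652066-32653185, reaching right, a partner at 177 kb with 36 wild-type tags was not listed in the mutant, while the next one, at 278 kb, had 42 and 35. At chr12:112663043-112664998 the nearest partner, at 34.1 kb, had 38 tags in each library, and the mutant list added a partner at 243 kb with 4. At chr10:121488446-121489556 a nearest wild-type partner at 218 kb with 21 tags was not listed in the mutant, the partner at 281 kb had 12 and 37 tags (adjusted p = 0.0775, exact binomial test), and a mutant partner at 411 kb with 12 was not in the wild-type list. At chr7:150892193-150893511, with identical partners at 41.6, 47.3 and 57.2 kb, tags were 44, 13 and 25 in the wild type and 36, 7 and 6 in the mutant (adjusted p = 0.0198 for the farthest, exact binomial test). A seventh, on chromosome 18, had 61 wild-type and 49 mutant tags on its partner at 163 kb.

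About 2 in 3 partners were found in both lists. Of 1860 wild-type partners, 1282 (68.9%, 66.8 to 71.0) were also partners in the mutant, and of 1905 mutant partners the same 1282 made up 67.3% (65.1 to 69.4). Over all interactions, the share found in the other list was 46.8% from the wild-type and 45.7% from the mutant side. The rule asks for several partners in both lists, which bears on this share, and its part in it was not tested. Two-sided anchors chosen by the same limits gave 68.6% and 66.7%. Partner sets were identical at 89 anchors (16.4%). The mutant kept all wild-type partners and added others at 52, held a part of the wild-type partners and no new one at 49, and both lost and added partners at 352 (64.9%). One anchor, at chr6:30353069-30354184 and reaching right, had no partner in both lists. Its wild-type partners at 132, 630 and 635 kb had 3, 5 and 3 tags, and its mutant partners at 56.5, 65.2 and 579 kb had 3, 4 and 4.

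Well supported partners recurred more. In the wild type 51.0% (46.5 to 55.4) of partners with 3 tags were also mutant partners, and 94.3% (87.1 to 98.1) of those with 20 or more. In the mutant the same shares were 40.5% (35.8 to 45.3) and 95.2% (89.8 to 98.2). Partners missing from the other list had a median of 4 tags in each library, and 3 tags were held by 43.3% of those from the wild type and by 40.8% of those from the mutant.

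The end of the row at which partners differed was not the same in the 2 libraries. The nearest wild-type partner was also in the mutant list at 62.5% (58.3 to 66.6) of anchors and the farthest at 71.8% (67.8 to 75.5). In the mutant list the order was turned round: the nearest partner was also a wild-type partner at 76.8% (73.0 to 80.2) and the farthest at 54.1% (49.8 to 58.3). So over all 542 anchors, partners seen in the wild type alone lay more often at the near end, and partners seen in the mutant alone at the far end. The 45 anchors with 5 wild-type partners went the other way, with 57.8% for the nearest, 46.7% for the farthest and overlapping intervals. Among 320 other anchor sides with 3 to 5 partners in both lists, the mutant shares were close to those of the 542 anchors, 75.9% for the nearest and 51.9% for the farthest. Their wild-type shares were 70.9% (65.6 to 75.9) and 69.7% (64.3 to 74.7), without the lower value at the nearest partner, although the interval of 62.5% and that of 70.9% overlap. With at least 4 tags in both lists the wild-type shares of the 270 remaining anchors were 74.1% for the nearest and 75.9% for the farthest, so that this gap depended on interactions with 3 tags. The mutant gap remained with at least 4 tags, at 82.2% and 61.9%.

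**Figure D4:**
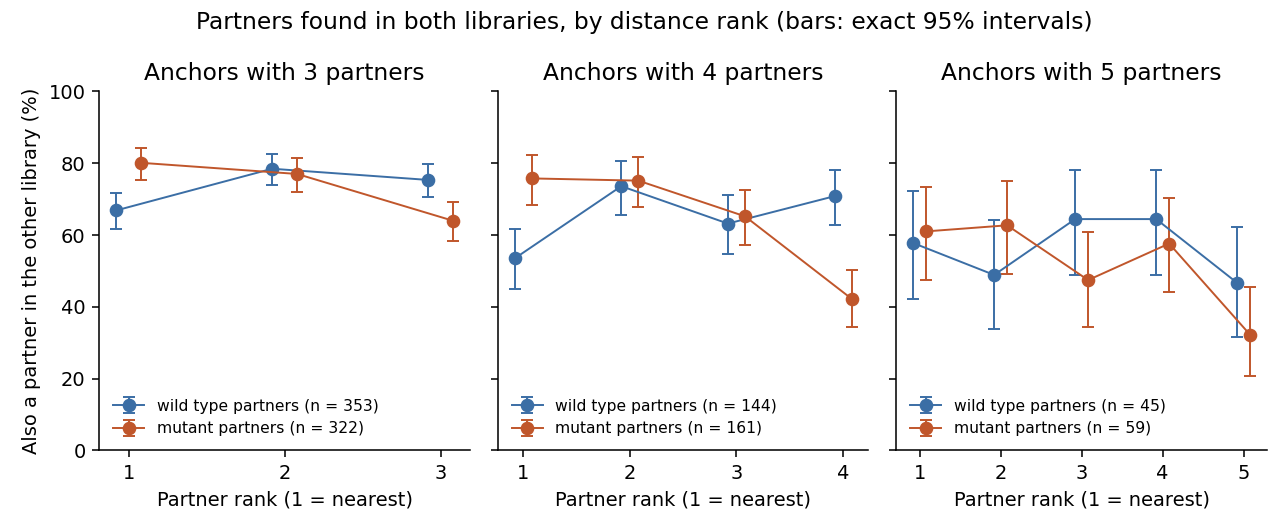
Share of partners at each rank that were partners of the same anchor in the other library, with exact 95% intervals, for anchors with 3, 4 and 5 partners. Mutant partners fall to their lowest share at the farthest rank in each panel, 64.0%, 42.2% and 32.2%.

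Distances told the same difference, and the whole lists differed in that direction as well. All listed interactions under 50 kb numbered 2106 in the wild type and 1690 in the mutant. Those of 400 to 800 kb numbered 1063 and 1402, and those of 800 kb or more 291 and 400. The 578 partners found in the wild type alone lay at a median of 136 kb (125 to 149), the 1282 in both lists at 160 kb (150 to 168), and the 623 in the mutant alone at 228 kb (210 to 254). Of the wild-type ones, 35.5% (31.6 to 39.5) were nearer than any mutant partner of that anchor and 14.9% (12.1 to 18.0) were beyond its mutant reach. Of the mutant ones, 15.1% (12.4 to 18.1) were nearer than any wild-type partner and 45.1% (41.1 to 49.1) were beyond the wild-type reach. Of all 12476 mutant anchors, 9095 were also in use in the wild type, and the same 9095 of all 13547 wild-type anchors in the mutant. Of partners found in the mutant alone, 62.1% (58.2 to 65.9) served other wild-type interactions, a lower share than among all mutant anchors. Among those beyond the wild-type reach the share was 74.7% (69.2 to 79.7), near that of all mutant anchors. Partners missing from the mutant were in use there in 33.0% (29.2 to 37.0). Their CH12 peaks were also lower, at a median percentile of 70.0 (67.5 to 73.0), beside 76.8 (74.4 to 79.2) for partners in the mutant alone and 83.5 (82.1 to 84.8) for partners in both.

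Tags of the interactions found in both lists differed little for most of them. Of 1230 such interactions of the one-sided anchors, 166 (13.5%, 11.6 to 15.5) were 2-fold or more higher in the mutant after scaling by listed tags, beside 12.6% of all 5400. Lower ones were 105 (8.54%, 7.03 to 10.2), beside 10.9%. By the exact binomial test 11 (0.894%, 0.447 to 1.59) were higher and 7 (0.569%, 0.229 to 1.17) lower in the mutant at an adjusted p under 0.05, beside 0.704% and 0.852% over all 5400. At an unadjusted p under 0.05, 63 (5.12%, 3.96 to 6.51) were higher and 41 (3.33%, 2.40 to 4.50) lower, beside 4.69% and 4.54%. The intervals of the higher calls hold the shares of the whole table. Those of the 2-fold and of the unadjusted lower calls lie below them, and the interval of the adjusted lower calls holds its share. The most different was the pair of chr15:81786219-81787659 and the left-reaching anchor at chr15:81819759-81820865, 33.4 kb apart, with 5 wild-type and 41 mutant tags (log2 difference 2.89, adjusted p = 7.14e-05). Next was the right-reaching anchor at chr7:106480787-106481968, whose interaction over 32.3 kb had 41 wild-type and 8 mutant tags (log2 difference -2.51, adjusted p = 7.99e-05). These p-values from the exact binomial test compare 2 libraries. One anchor, at chr9:31366757-31367929, had calls in both directions, with 52 and 24 tags on a partner at 366 kb and 6 and 29 on one at 600 kb.

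Summed over partners, the tags of an anchor moved less than those of anchors at large. The median log2 ratio of summed scaled tags, mutant over wild type, was 0.05 (0.01 to 0.12), and 33 anchors (6.09%) were 2-fold or more higher and 21 (3.87%) lower. Over all 9095 anchors in both lists the shares were 17% and 14.2%. Most anchors of the whole table have fewer interactions and thus fewer tags in their sum, and the part of counting error in this difference was not tested. Scaling by tags of interactions in both lists lowers log2 ratios by 0.06. That shift is no smaller than the median of 0.05, whose sign thus depends on the scaling.

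Some of the one-sided anchors were partners of one another, facing across a loop. In the wild type 54 facing pairs joined 101 anchors (18.6%, 15.4 to 22.2), and in the mutant 62 pairs joined 114 (interval 17.7 to 24.7%), with 52 pairs in both lists. The facing anchor was the farthest partner at 53.7% (43.8 to 63.3) of the 108 wild-type ends and at 50.0% (40.9 to 59.1) of the 124 mutant ends, and the nearest at 7.41% and 7.26%. Facing pairs had a median of 6 tags (5 to 7) in the wild type and 8 (6 to 12) in the mutant, beside 5 for the other interactions of these anchors in each list. Facing anchors thus stood at the outer end of about 50% of these rows and rarely at the inner end. For reference, farthest partners made up 542 of all 1860 wild-type and 1905 mutant partners of the one-sided anchors, and so did nearest partners.

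The 3 facing pairs with most tags differed in how the remaining partners lay around them. At chr1:155406098-155407622 and chr1:155588934-155590215, 183 kb apart, the joint interaction had 19 wild-type and 38 mutant tags (adjusted p = 0.466, exact binomial test). The right-reaching anchor had its other partners just past the facing one, at 187 and 190 kb with 14 and 4 wild-type and 15 and 5 mutant tags, so here the facing anchor was the nearest. A further right-reaching anchor of the set, at chr1:155403794-155404770, stands 2.58 kb from it and had 2 partners in common with it in the wild type and 3 in the mutant. The pair of chr1:167709727-167711574 and chr1:168083149-168085006, 373 kb apart, had 29 and 26 tags, and inside it the right-reaching anchor had a partner at 187 kb with 28 and 23. The pair of chr9:45029186-45030466 and chr9:45196003-45197373, 167 kb apart, had 25 and 24 tags, and both of its anchors shared an inner partner at chr9:45106700-45109155, with 8 and 15 tags from the left end and 13 and 8 from the right end.

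Most partners had further interactions of their own. Of 1774 distinct wild-type partners, 707 (39.9%, 37.6 to 42.2) had no other interaction, and of 1799 mutant partners 563 (31.3%, 29.2 to 33.5) had none. Among wild-type partners with exactly 2 interactions, 74.5% (70.5 to 78.2 of 525) had both on the side of the one-sided anchor, beside 87.1% (85.8 to 88.3) one-sided among the 2954 other anchors with 2. The mutant shares were 73.3% (69.3 to 77.1) and 84.4% (83.0 to 85.8). Partners were therefore two-sided more often than other anchors of the same partner number, with intervals that do not overlap. The part of a partner's place in the row in this difference was not tested.

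Close neighbours among the one-sided anchors did not face each other. Among 18 neighbouring pairs within 50 kb, 10 were a left-reaching anchor followed by a right-reaching one, none faced each other and 8 reached the same way. Within 200 kb there were 71 pairs, of which 19 were back to back and 25 facing. The rule needs 3 partners on the reached side, so these counts are given as description. The pair at chr8:73392430-73394900, reaching left, and chr8:73397212-73398353, reaching right, stood 4.12 kb apart and reached 149 and 90.5 kb in the wild type, 28.5 and 76.2 kb in the mutant. The pair at chr3:19794384-19795492 and chr3:19804442-19805317, 9.94 kb apart, reached 372 kb to the left and 294 kb to the right in the wild type, and 372 and 429 kb in the mutant. Neither pair had a partner in common.

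All 542 anchors overlapped a CTCF ChIP-seq peak of CH12 cells and a peak from B cells, as did 99.4% and 99.2% of all anchors in both lists, which the authors assigned to CTCF peaks. Their CH12 peaks stood at a median percentile of 83.1 (80.6 to 85.5) by score within the list of 39438 peaks, below the 92.3 (90.1 to 93.9) of the two-sided anchors and above the 79.1 (78.5 to 79.8) of all anchors in both lists. Partners found in both lists stood at 83.3 (81.9 to 84.7), and those in a single list lower, as given above. Anchors reaching left and right stood at 84.3 and 82.6.

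Along the reach most peaks were passed over. Between the anchors and their farthest wild-type partners lay 5021 CH12 peaks, counted once for each anchor, and 1344 of them (26.8%, 25.5 to 28.0) were partners. Along the mutant reach, with the same wild-type peak list, 1405 of 6153 (22.8%, 21.8 to 23.9) were partners. Partner peaks were much stronger: their median percentile was 77.0 (75.4 to 78.8) beside 43.0 (41.4 to 44.4) for peaks passed over in the wild type, and 78.9 beside 44.4 in the mutant. The share that were partners rose in each class of strength, from 6.10% (4.67 to 7.79) of the weakest 5th of the list to 52.0% (49.1 to 54.9) of the strongest in the wild type, and from 4.21% (3.13 to 5.53) to 47.2% (44.6 to 49.8) in the mutant. Tags and peak scores both come from precipitated CTCF, so looping and the strength of binding cannot be told apart here. Listed interactions had been assigned to CTCF peaks with core motifs, while peaks were counted here and below without regard to motifs. The part of that in these shares was not tested.

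**Figure D5:**
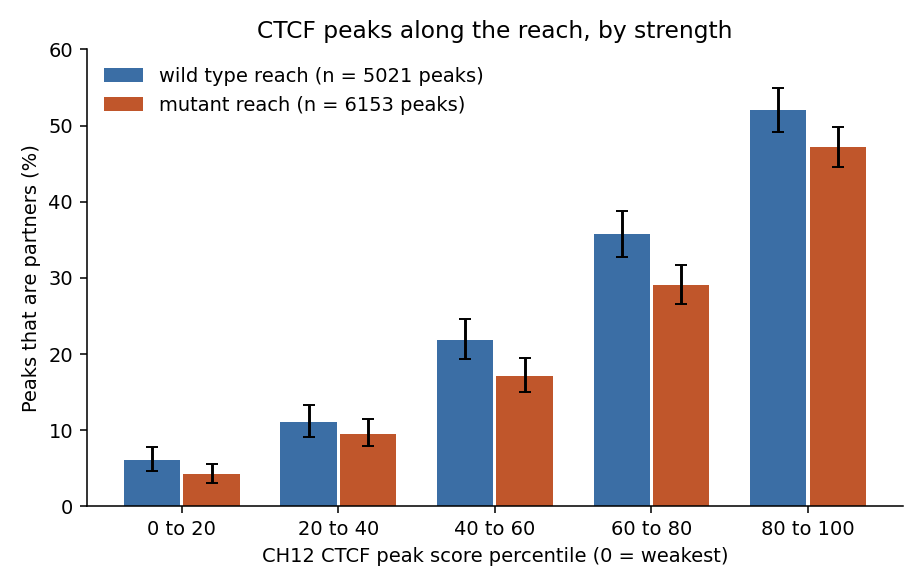
Share of CH12 CTCF peaks between an anchor and its farthest partner that were partners of that anchor, by percentile class of the peak score in the whole list, with exact 95% intervals. The share rises at each class in both libraries, to 52.0% in the wild type and 47.2% in the mutant.

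Strength did not order the row completely. The strongest peak short of the farthest partner was a partner at 66.8% (62.6 to 70.7) of anchors in the wild type and 61.1% (56.8 to 65.2) in the mutant. At 48.9% (44.6 to 53.2) of anchors in the wild type and 55.2% (50.9 to 59.4) in the mutant, at least 1 peak stronger than the anchor's own was passed over. Of the peaks passed over in the wild type, 26.8% (25.4 to 28.3) were anchors of other interactions of the same list, and 22.9% (21.7 to 24.1) in the mutant.

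The side without partners had nearly as many CTCF peaks in sum. In a window of the same length as the wild-type reach, mirrored to the other side, the median was 8 peaks (7 to 8), beside 9 (8 to 9) on the partner side, where the rule itself puts partners. The sums were 5237 and 5294 peaks. More peaks lay on the partner side at 287 anchors and on the empty side at 215, with 40 equal. Only 8 anchors (1.48%) had no CH12 peak in the mirrored window. Median percentiles of these peaks were 54.8 on the empty side and 55.6 on the partner side.

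The nearest other CH12 peak was on the empty side more often. Its median distance was 10.5 kb (8.88 to 11.9) on the empty side and 23.3 kb (21.1 to 25.7) on the partner side, over the 541 anchors with a peak on each side. It was nearer on the empty side at 360 of them (66.5%, 62.4 to 70.5), at 69.4% of left-reaching and 63.5% of right-reaching anchors. A peak within 10 kb was found on the empty side of 48.6% (44.3 to 52.9) and on the partner side of 25.1% (21.5 to 29.0). The nearest peak on the empty side was also the stronger, with a median percentile of 63.7 beside 50.5. Partners are themselves peaks, so the rule bears on where peaks lie around an anchor, and its part in this difference was not tested. The 6263 other anchors that were one-sided in both lists, most with fewer partners, showed the same order at a smaller size, with the nearest peak on the empty side at 60.6% (59.4 to 61.8) and median distances of 13.9 and 23.3 kb.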

How the data were processed

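For 2 CTCF ChIA-PET libraries of CH12 cells, 1 of each genotype as labelled, the authors deposited counts of supporting tags per interaction. Per the file headers these were assigned to CTCF peaks with core motifs and limited to 3 or more tags and loops up to 2 Mb. Of 2 CTCF peak lists, the one from CH12 cells holds a score per peak, as deposited, and the one from resting and activated B cells, deposited as narrowPeak, a −log10 q-value. Positions are in mm9, per the submitters' processing notes, which name Bowtie 1.1.1, BWA, SAMtools 1.2, bedtools 2.25 and CASAVA 1.8.2 with no roles. The program that called interactions and the sequencing depth are, in the sources used here, not given. An interaction missing from a list may have had 1 or 2 tags or no peak call.

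Anchors were matched by their coordinates. Distances ran between midpoints, and a peak belonged to an anchor when it overlapped by 1 bp. Scores and q-values were used only as percentiles within their own list. Tags were scaled by the sum of listed tags, and interactions in both lists were compared by a two-sided exact binomial test with Benjamini-Hochberg adjustment at 0.05. Shares have exact Clopper-Pearson and medians order-statistic 95% intervals. The code (Python 3.11.15, numpy 2.4.6, pandas 2.3.3, scipy 1.17.1, matplotlib 3.10.9) was tested on simulated data.

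Named anchors were the 5 left-reaching and 5 right-reaching with most tags, the 3 longest wild-type reaches, the 3 largest gains and losses of reach, the 3 with most tags and identical partners, those with no partner in both lists, and the 3 facing pairs with most tags; of the gains and losses the first is described. Interactions called by the binomial test and neighbouring anchors were named after their values were seen. The anchors and this rule were chosen with earlier results of these data known. Alternatives were the tag minimum, partner limits, span limit, merging of anchors, peak sets, fold and scaling.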

Additional observations from a re-analysis of the deposited data

How the results depend on the processing

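The left share, 51.5% in the main setting, was 49.4% (44.2 to 54.7) with anchors within 5 kb merged, on the other side of 50%. The median log2 tag ratio changed sign with the scaling, as given below. The other results that were computed again kept their direction under the settings tried. With at least 4 tags 270 anchors met the rule, with exactly 3 partners 232. The median wild-type reach was 224 kb with 4 tags and 282 kb with anchors within 5 kb merged. The share of wild-type partners in both lists was 76.0% with 4 tags, 72.4% with exactly 3 partners and 74.2% with merged anchors. The nearest partner had most tags at 34.1% with 4 tags. Anchors joined to a facing one made up 13.7% with 4 tags, 12.9% with exactly 3 partners, 23.3% without an upper limit, 15.2% with merged anchors and 14.1% with 4 tags in the mutant list alone, where the share with longer mutant reach was 61.9%. Peaks along the reach that were partners made up 41.0% of those at or above the median score, 18.1% of B cell peaks and 28.8% when within 1 kb of an anchor. The difference in median percentile between partner and passed-over peaks was 9.98 for the upper set of peaks and 39.7 with B cell peaks. At a fold of 1.5, 358 interactions were higher and 221 lower in the mutant. Scaling by tags of interactions in both lists moved the median log2 ratio of all such interactions by 0.06, from 0.004 to -0.05. It gave 148 interactions of the one-sided anchors higher and 125 lower past 2-fold, and 11 and 8 by the exact binomial test. Of 120 alternative values, 74 stayed within the interval, or for counts within 1.5 times, of the main value. No paired analysis was possible because each genotype had a single ChIA-PET library. Motif direction was not run for lack of a genome of this build. The tag minimum of 3 limits all statements on missing partners, and no difference has a replicate check.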
